A study of Mus musculus with 4 samples.

Results

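The p200 family, also called the PYHIN or HIN-200 family, was described in T29 cells, a mouse thymic lymphoma line, by every probe set whose platform annotation names Ifi202b, Ifi203, Ifi204, Ifi205, Mndal, Aim2 or Pyhin1. This gave 12 of the 45037 non-control probe sets, covering 6 of the 7 listed symbols among 19324 symbols in all. No probe set was annotated with the symbol Pyhin1, which RefSeq holds as a synonym of Ifi209, and the 2 Ifi209 probe sets are given below with the other genes of the locus. Of the 12 probe sets 6 named 1 gene and 6 named several near-identical copies, and these were kept apart and marked.

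Expression was measured on 4 arrays. The GSI group was 2 samples of T29 cells treated with MRK003, an inhibitor of gamma-secretase, at a dose the labels write as 5 mM for 36 h. The DMSO group was 2 samples of the same line labelled as treated with DMSO, the solvent. The unit of the dose could not be checked, and the treatment text is the same for all 4 samples, so the groups rest on the titles. The labels give neither the mouse strain and genotype of T29, nor whether it is 1 clone, nor whether replicates came from different cultures. The p-values therefore cover only the variation among these 4 samples, and that may be technical. In such bulk RNA fewer cells carrying a transcript and less transcript per cell cannot be told apart.

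Gamma-secretase releases the intracellular part of Notch receptors, which acts in the nucleus and is a main driver of early thymocyte development and of many T cell leukaemias. The p200 genes lie side by side on mouse chromosome 1 and are induced by interferons. Most of their proteins combine a pyrin domain, which binds other pyrin proteins, with 1 or more HIN domains, which bind DNA. They act as DNA sensors and as regulators of transcription and growth.

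The promoters of the family show how closely the copies resemble each other and where they differ. Windows of 300 bases, from 250 before to 50 after the annotated start, are taken from RefSeq on GRCm38.p6 and read 5′ to 3′ on the gene's strand. Windows were found for 5 of the listed genes, Aim2, Ifi202b, Ifi203, Ifi205 and Mndal. Mndal and Ifi203 had 2 annotated starts each, and the windows of the pair compared below are shown. Capitals mark matches to the interferon-stimulated response element core (GAAA, then 2 bases of any kind, then GAAA), to the gamma-activated site TTCNNNGAA or to TGGGAA, the core bound by the Notch nuclear partner RBPJ, each sought on both strands, and no matches overlap in the windows shown. The next sequences are those of Ifi202b (chr1:173982795-173983094, minus strand), Mndal (chr1:173880138-173880437, minus strand), Ifi203 (chr1:173942443-173942742, minus strand), Ifi205 (chr1:174031706-174032005, minus strand) and Ifi207 (chr1:173741760-173742059, minus strand), the last shown as a dim copy that is no listed member.
Ifi202b: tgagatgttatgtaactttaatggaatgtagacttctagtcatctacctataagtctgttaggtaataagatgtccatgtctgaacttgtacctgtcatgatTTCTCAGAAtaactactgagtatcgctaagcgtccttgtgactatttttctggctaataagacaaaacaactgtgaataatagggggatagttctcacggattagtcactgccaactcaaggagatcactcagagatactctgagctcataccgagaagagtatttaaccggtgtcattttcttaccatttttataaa
Mndal: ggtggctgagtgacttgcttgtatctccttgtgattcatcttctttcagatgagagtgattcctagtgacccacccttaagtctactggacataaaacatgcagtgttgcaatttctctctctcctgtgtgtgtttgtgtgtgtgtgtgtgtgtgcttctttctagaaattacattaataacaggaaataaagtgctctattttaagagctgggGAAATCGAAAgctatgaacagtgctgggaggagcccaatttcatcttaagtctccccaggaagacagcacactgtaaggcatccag
Ifi203: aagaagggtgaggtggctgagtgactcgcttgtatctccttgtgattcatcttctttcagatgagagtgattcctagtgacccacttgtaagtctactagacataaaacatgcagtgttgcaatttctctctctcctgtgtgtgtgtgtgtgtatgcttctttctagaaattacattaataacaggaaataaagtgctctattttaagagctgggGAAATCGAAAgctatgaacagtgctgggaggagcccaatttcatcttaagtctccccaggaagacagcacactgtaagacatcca
Ifi205: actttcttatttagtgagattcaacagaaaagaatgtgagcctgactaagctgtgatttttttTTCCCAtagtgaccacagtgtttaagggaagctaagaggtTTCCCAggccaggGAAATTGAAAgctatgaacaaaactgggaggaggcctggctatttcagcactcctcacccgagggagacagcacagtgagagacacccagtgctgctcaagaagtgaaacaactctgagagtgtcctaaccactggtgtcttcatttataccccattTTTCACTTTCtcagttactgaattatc
Ifi207: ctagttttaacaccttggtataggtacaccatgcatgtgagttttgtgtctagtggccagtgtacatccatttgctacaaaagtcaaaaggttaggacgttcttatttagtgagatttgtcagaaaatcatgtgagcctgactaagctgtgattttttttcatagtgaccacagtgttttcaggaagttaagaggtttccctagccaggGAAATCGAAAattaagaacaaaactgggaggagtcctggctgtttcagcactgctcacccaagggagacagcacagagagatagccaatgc

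The Mndal and Ifi203 windows were identical at 94.3% of 299 aligned columns, and both carried the response element core as GAAATCGAAA, starting 36 bases before the annotated start in Mndal and 35 before it in Ifi203. Of their other windows, that of Mndal held 1 match on the opposite strand and that of Ifi203 none. Ifi205 carried 2 matches to this core. The Ifi202b window carried none, and held 1 match to the gamma-activated site. It aligned with each of the Mndal and Ifi203 windows shown over 22 columns. The Mndal window shown aligned with that of Ifi205 over 92 columns, identical at 75.0%. Among all 32851 promoter windows of this length the response element core was present in 3.44%, the gamma-activated site in 8.30% and TGGGAA in 25.6%. Of the 14 family windows 10 held the response element core, from 9 of the 12 genes with a window. These were Ifi207, Ifi213, Ifi206, Ifi208, Ifi214 and Ifi211 beside the 3 listed members Mndal, Ifi203 and Ifi205. Some of these windows are near copies, such as those of Ifi206 and Ifi208, identical at 98.9% of 282 columns. Their matches are therefore not independent. TGGGAA was found in the Ifi205 window alone of the 14 family windows, in 2 places. None of the searched letters stood in the Aim2 window. GRCm38 is the genome of C57BL/6J, a strain known to lack Ifi202b expression because of a deletion at the 5′ end of the gene, and since the strain of T29 is not given, the Ifi202b window may not be the one these cells use. A match is a description of letters and not of a bound site.

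The probe sets of the family were lower with GSI, but they do not stand for 12 separate genes. Several read the same gene or its near-identical copies, so their differences are not independent. Only 9 of the 12 were above the range of dim readings, defined below, on all 4 arrays. On all 4 arrays 2 others, among them that of Aim2, lay within that range, so their lower readings carry little weight. All 12 probe sets had both GSI arrays below both DMSO arrays, an arrangement found for 25.2% of all probe sets, and the median log2 difference of the 12 was -1.38, against -0.01 over all probe sets. The fit across all 45037 probe sets (limma, Benjamini-Hochberg adjusted p under 0.05) called 9 of the 12, all 9 lower, against 0.446% of all probe sets called lower and 1.39% called in either direction. Of the 6 probe sets that name 1 gene 4 were called. The family was chosen by the large GSI minus DMSO differences of Ifi202b and Ifi204 in this same contrast, so these counts, and the values of all members below, describe the arrays and are not tests. Differences are given with the standard error (SE) of the fit, levels are log2 values, and a fold is a back-transformed log2 difference.

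**Figure D1:**
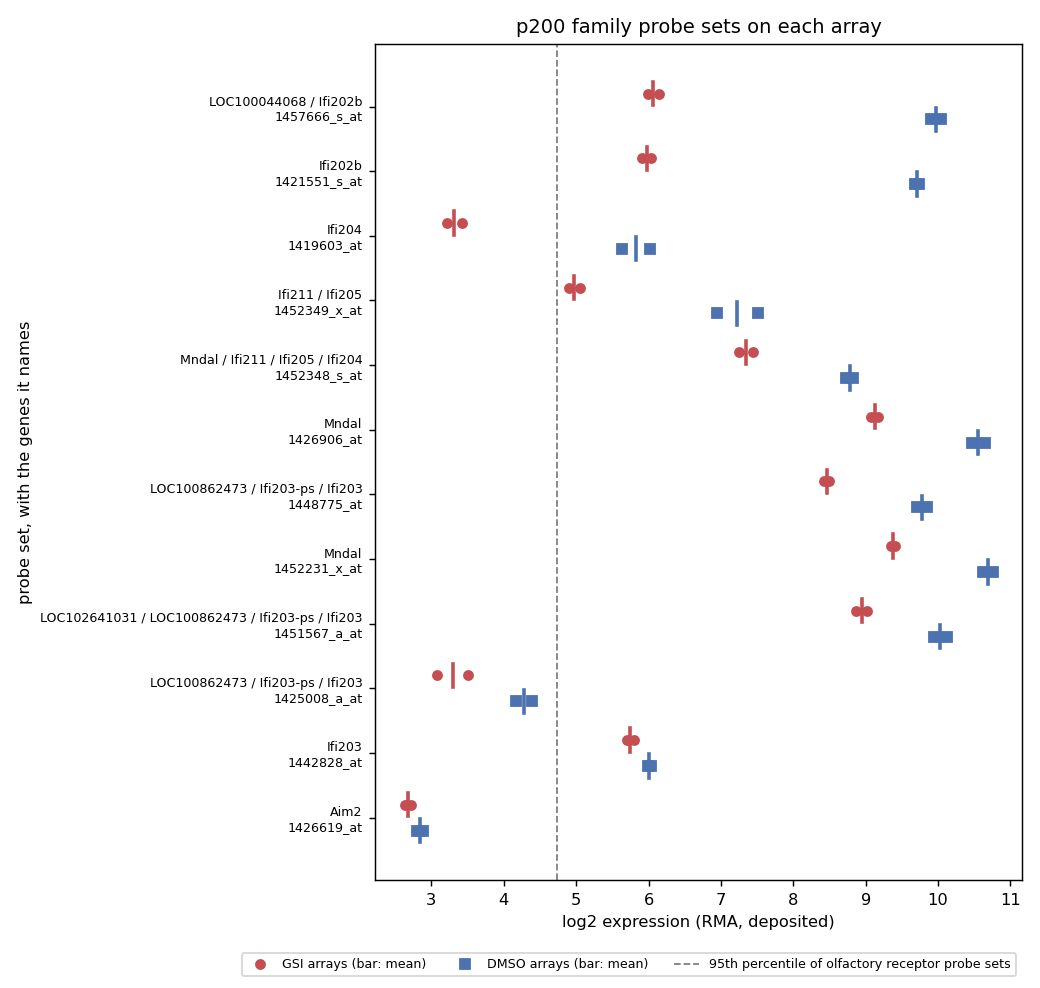
Log2 expression (horizontal axis) of the 12 p200 family probe sets, ordered by their difference, with circles for the 2 GSI arrays and squares for the 2 DMSO arrays and a bar at each mean. In every row the GSI arrays lie left of the DMSO arrays. The dashed line at 4.74 is the 95th percentile of olfactory receptor probe sets.

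Ifi202b encodes p202, which carries HIN domains but no pyrin domain and in mouse cells restrains the DNA sensor Aim2. Its own probe set, 1421551_s_at, read 6.04 and 5.91 on the GSI arrays, against 9.67 and 9.73 on the DMSO arrays. The difference of -3.73 ± 0.10 (SE) is a 13.3-fold lower level. The arrays of each group lay close together, and the gap between the groups was many times their spread. A further probe set, 1457666_s_at, which names Ifi202b and the copy LOC100044068, gave 5.99 and 6.14 with GSI, against 10.04 and 9.90 with DMSO, a difference of -3.90 ± 0.11 (SE) or 14.9-fold. These 2 probe sets had the first and second most negative differences of all 45037. The level left with GSI was still above that of 63.4% and 64.2% of probe sets, compared with 93.0% and 94.1% with DMSO.

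Ifi204 encodes p204, a regulator of cell growth and differentiation that binds the retinoblastoma protein and the nucleolar factor UBF. Probe set 1419603_at read 3.42 and 3.22 on the GSI arrays, against 6.02 and 5.64 on the DMSO arrays, a difference of -2.51 ± 0.16 (SE). To judge how dim a reading is, the 44 probe sets of 39 olfactory receptor genes, which T cells are not known to use, served as a guide, with a median level of 3.51 and a 95th percentile of 4.74. The GSI readings of Ifi204 lay under both values and the DMSO readings above both. The 5.71-fold difference therefore sets a readable level against one in the range of olfactory receptor probe sets, and its size is uncertain, as log2 values of dim probe sets compress differences.

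Ifi205 encodes p205, which in mouse macrophages has been linked to expression of the inflammasome adaptor Pycard. No probe set named it alone. Probe set 1452349_x_at, which names Ifi205 and its copy Ifi211, read 5.05 and 4.90 with GSI, against 6.94 and 7.51 with DMSO, and differed by -2.25 ± 0.19 (SE), or 4.76-fold. The DMSO arrays lay 0.57 apart here, the widest gap within a group among the 12 probe sets, and both still stood well above the GSI arrays. The GSI readings lay little above 4.74, the 95th percentile of the olfactory receptor probe sets, so the size of the fold is uncertain. Probe set 1452348_s_at, which names Mndal, Ifi211, Ifi205 and Ifi204 together, read 7.24 and 7.44 with GSI, against 8.83 and 8.73 with DMSO. Its difference of -1.44 ± 0.11 (SE) was closer to that of Mndal than to that of Ifi204 or of the pair Ifi205 and Ifi211. The share of each named gene in such a signal is uncertain.

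Mndal, named for its likeness to the human myeloid nuclear differentiation antigen, belonged with the Ifi203 copies to the brightest of the family. Probe set 1426906_at read 9.08 and 9.17 with GSI, against 10.64 and 10.47 with DMSO, and 1452231_x_at read 9.41 and 9.35, against 10.76 and 10.62. The differences were -1.43 ± 0.11 and -1.32 ± 0.10 (SE), or 2.70-fold and 2.49-fold. The 2 Mndal probe sets thus gave like differences, and with GSI both remained at levels above 89.8% and 91.3% of all probe sets. RefSeq also holds Mndal as a synonym of Ifi203, and whether Ifi203 copies add to these readings was not tested.

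Ifi203 encodes p203 and was read by 4 probe sets, which disagreed. The 3 that also name the pseudogene Ifi203-ps and the copy LOC100862473 read lower with GSI. Probe set 1448775_at gave 8.42 and 8.50 with GSI, against 9.85 and 9.71 with DMSO, and 1451567_a_at, which adds LOC102641031, gave 8.87 and 9.02, against 10.12 and 9.95. Their differences were -1.32 ± 0.10 and -1.09 ± 0.11 (SE), with no overlap between the groups. The third of them, 1425008_a_at, was dim on all arrays, at 3.08 and 3.51 with GSI and 4.40 and 4.17 with DMSO, and its difference of -0.99 ± 0.17 (SE) did not pass the fit's threshold. Probe set 1442828_at, the one that names Ifi203 alone, read 5.79 and 5.70 with GSI, against 5.99 and 6.03 with DMSO. This difference of -0.26 ± 0.09 (SE), also not past the threshold, was about a log2 unit smaller than that of the bright shared probe sets. Which copy carried the larger difference cannot be read from these probe sets.

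Aim2 encodes the cytosolic DNA sensor that builds an inflammasome with Pycard and caspase-1. Its probe set 1426619_at read 2.63 and 2.72 with GSI, against 2.80 and 2.89 with DMSO, and the difference of -0.17 ± 0.10 (SE) did not pass. All 4 readings lay below the median of the olfactory receptor probe sets, so no level of Aim2 transcript could be read from this probe set in either group.

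Within the family, the probe sets above 4.74 on all arrays were ordered by difference. Most negative were those of Ifi202b, then that of Ifi205 with Ifi211. Next came Mndal, the bright Ifi203 copies and 1452348_s_at, which names 4 genes, at -1.44 ± 0.11 (SE). Last was the probe set that names Ifi203 alone. The size of the difference for Ifi205 with Ifi211 is uncertain, since the GSI readings of 5.05 and 4.90 lay little above 4.74. Mndal (-1.43 ± 0.11 and -1.32 ± 0.10) and the bright Ifi203 probe set 1448775_at (-1.32 ± 0.10), with SE, did not differ beyond their errors. The other bright Ifi203 probe set, 1451567_a_at, was less negative, at -1.09 ± 0.11 (SE), and its gap to Mndal was not tested. Ifi204 has no settled place in this order, since its GSI readings lay in the range of olfactory receptor probe sets. Of the 12 probe sets 9 were above 4.74 on all 4 arrays, 2 (Aim2 and 1425008_a_at) were at or under it on all 4, and Ifi204 was above it with DMSO alone.

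**Figure D2:**
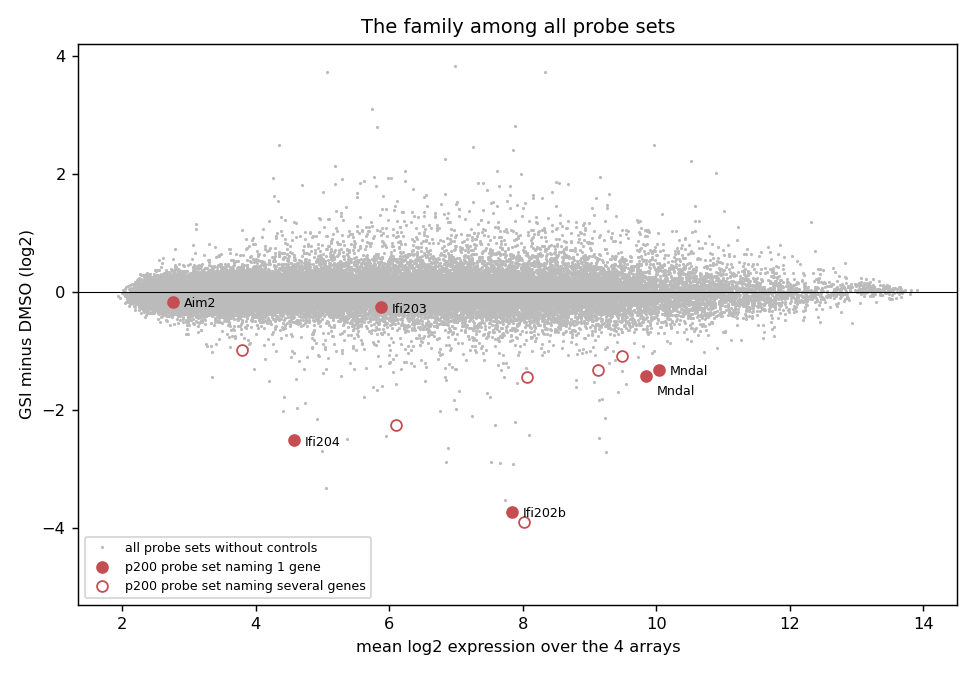
Mean log2 expression over the 4 arrays (horizontal axis) and GSI minus DMSO log2 difference (vertical axis) for every non-control probe set, with the p200 family in red, filled where 1 gene is named and open where several are. The Ifi202b probe sets lie at the lower edge of the cloud, at -3.73 and -3.90, and Aim2 lies within it.

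The listed genes span 682.2 kb of chromosome 1, from Aim2 to Ifi205 (chr1:173349547-174031755, GRCm38.p6), with 19 RefSeq genes in that interval. Every called family probe set belonged to genes of the stretch from Ifi204 to Ifi205. Between Aim2 and Ifi204 lie further PYHIN genes, of which Ifi213, Ifi209 and Ifi207 had 5 probe sets of their own. None of the 5 passed limma (smallest adjusted p = 0.288). Before adjustment 1 was lower and 0 higher at p under 0.05, against 8.23% lower and 8.17% higher of all probe sets, and all 5 were at or under 4.74 on all 4 arrays. The nearest to passing, Ifi209 probe set 1435331_at, read 2.66 and 2.82 with GSI, against 3.29 and 2.94 with DMSO (difference -0.37 ± 0.14, SE), and 1435330_at of the same gene differed by -0.48 ± 0.20 (SE). Ifi213 differed by -0.29 ± 0.16 on 1437636_at and by 0.06 ± 0.14 on 1444405_at (SE). These genes, like Aim2, were too dim on the array to show whether they moved with the others.

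Among the nearest measured genes on each side of the family interval no probe set passed. Of the 27 probe sets of the 10 measured genes on each side 0 passed limma, against 1.39% of all probe sets, and the median difference was -0.08. Before adjustment 5 of the 27 were lower and 0 higher at p under 0.05, against 8.23% lower and 8.17% higher of all probe sets. On the Aim2 side the nearest were Ackr1, a decoy chemokine receptor gene, at -0.08 ± 0.10, and Fcer1a, encoding the IgE receptor alpha chain, at -0.10 ± 0.17. On the Ifi205 side they were Mptx1, at -0.12 ± 0.17, and Fmn2, encoding an actin nucleator, whose 3 probe sets ranged from -0.33 to 0.09. Of the 27 probe sets 16 were at or under 4.74 on all arrays, while 10 were above it on all 4. Of these 10 the difference was negative for 8, 3 of them at an unadjusted p under 0.05, with a median of -0.10 and a range from -0.51 to 0.18. The most negative were those of Exo1, encoding a DNA repair exonuclease, at -0.51 ± 0.16 and -0.37 ± 0.10 on its 2 bright probe sets, and of Opn3, encoding an opsin, at -0.40 ± 0.13. Fh1, encoding fumarate hydratase, differed by -0.20 ± 0.09, and Tagln2, encoding an actin-binding protein, by 0.05 ± 0.10 and -0.05 ± 0.12 on its 2 bright probe sets, all with SE.

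**Figure D3:**
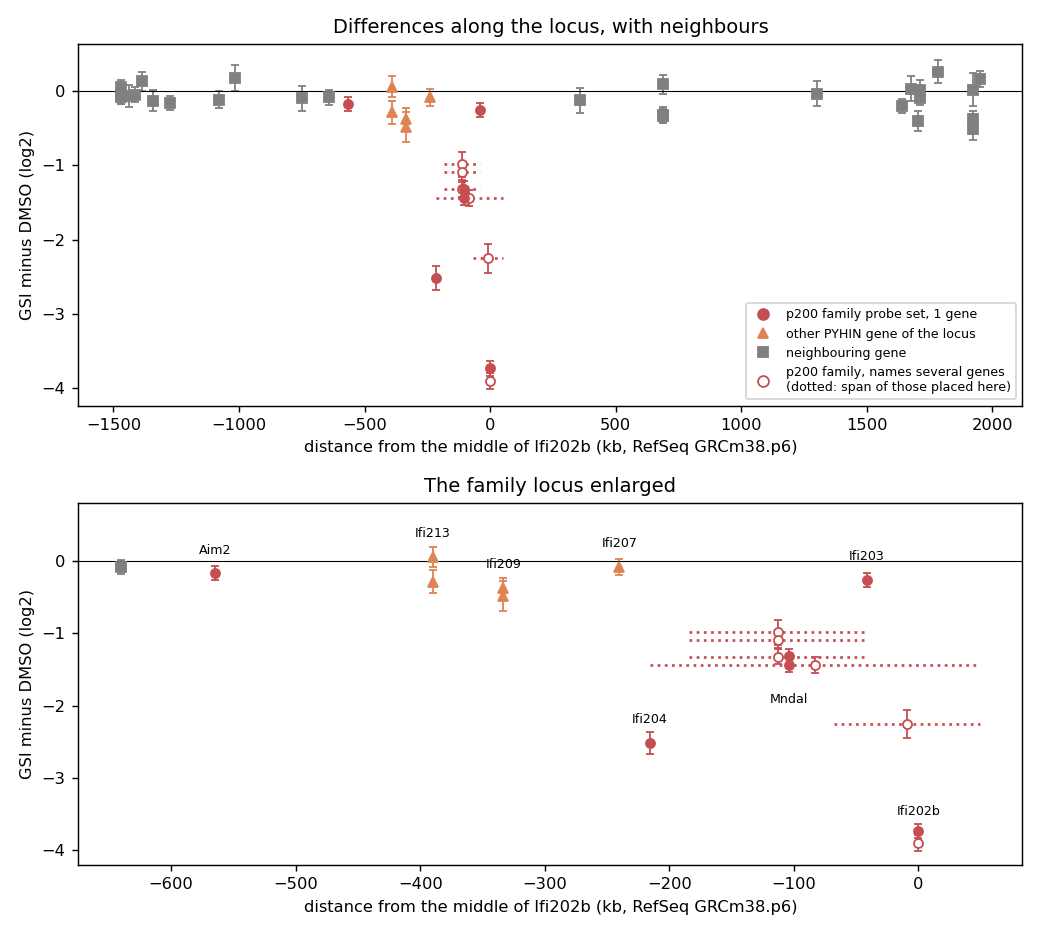
GSI minus DMSO log2 difference with its SE (vertical axis) against distance in kb from the middle of Ifi202b (horizontal axis), for p200 family probe sets (circles, open and with a dotted span where several genes are named), other PYHIN genes (triangles) and neighbouring genes (squares). The upper panel holds all 20 neighbouring genes and the lower panel enlarges the family. Values below -0.9 occur only among family probe sets in the stretch from Ifi204 to Ifi205.

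Interferons induce the p200 genes, so other interferon-stimulated genes were read from the same fit. Of 44 probe sets of 25 such genes 2 rose, 0 fell and 42 did not pass, against 0.948% of all probe sets called higher, and the median difference was 0.14. Ifi47, encoding an interferon-inducible GTPase, read 9.49 and 9.25 with GSI, against 8.40 and 8.35 with DMSO, and rose by 0.99 ± 0.11 (SE; limma, adjusted p = 0.0231). Bst2, encoding the antiviral membrane protein tetherin, read 9.49 and 9.50 with GSI, against 8.71 and 8.44 with DMSO, and rose by 0.92 ± 0.12 (SE; limma, adjusted p = 0.0322). At an unadjusted p under 0.05, 9 of the 44 were higher and 1 lower, against 8.17% and 8.23% of all probe sets. The lower one, Oasl2, differed by -0.55 ± 0.13 (SE) and was under 4.74 on all arrays. Ifi47 and Bst2, the 2 called genes, pointed opposite to the called probe sets of the p200 family. The size of this contrast between lists was not tested.

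For the interferon receptors and their signal chain the calls were also rises, with no called fall. Of 37 probe sets of 20 genes 2 rose and 35 did not pass, against 0.948% of all probe sets called higher, and the median difference was 0.28. Both called probe sets belong to Ifnar2, encoding a chain of the type I interferon receptor. Its probe set 1427691_a_at read 7.77 and 7.70 with GSI, against 6.83 and 6.86 with DMSO (0.89 ± 0.09, SE; limma, adjusted p = 0.0182), and 1440169_x_at rose by 0.76 ± 0.11 (SE; limma, adjusted p = 0.0407). The third Ifnar2 probe set differed by 0.60 and missed the threshold (limma, adjusted p = 0.0540). Before adjustment, 18 of the 37 were higher and 1 lower at p under 0.05, against 8.17% and 8.23% of all probe sets. The lower one was Irf4 probe set 1421173_at, at -0.52 ± 0.10 (SE; limma, adjusted p = 0.0785).

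Nucleic acid sensors upstream of interferon did not pass. Of 36 probe sets of 17 genes 0 passed limma, against 1.39% of all probe sets, and the median was -0.03. Before adjustment 5 were higher and 3 lower at p under 0.05, against 8.17% and 8.23% of all probe sets. The 2 genes with the smallest p were Zbp1, encoding a sensor of nucleic acids in the Z conformation, at 0.81 ± 0.17 (SE; limma, adjusted p = 0.0945), and Sting1, encoding the adaptor of cytosolic DNA sensing, at 0.43 ± 0.13 (SE; limma, adjusted p = 0.203). A second probe set of each gene differed by less, 0.15 ± 0.14 for Zbp1 and 0.17 ± 0.13 for Sting1 (SE).

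Of the inflammasome genes that work with Aim2, 1 of 21 probe sets from 14 genes rose, 0 fell and 20 did not pass, against 0.948% of all probe sets called higher, and the median was 0.14. It belonged to Pycard, the adaptor that joins Aim2 to caspase-1, and read 11.13 and 11.05 with GSI, against 10.14 and 9.99 with DMSO. This is a rise of 1.03 ± 0.10 (SE; limma, adjusted p = 0.0176), or 2.04-fold. The dimmer Pycard probe sets differed by 0.83 and 0.31 and did not pass. At an unadjusted p under 0.05, 5 of the 21 were higher and 2 lower, against 8.17% and 8.23% of all probe sets. The 2 lower ones were Naip5, at -0.83 ± 0.16, and Nlrp3, at -0.25 ± 0.09 (SE). Casp1, encoding caspase-1, read 2.44 and 2.43 with GSI, against 2.64 and 2.42 with DMSO, below the olfactory receptor median on all arrays.

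Genes listed as encoding proteins that bind p200 proteins were read as a last list. Of 38 probe sets from 19 genes 2 fell, 0 rose and 36 did not pass, against 0.446% of all probe sets called lower, and the median was -0.05. Before adjustment 4 were higher and 5 lower at p under 0.05, against 8.17% and 8.23% of all probe sets. Id1, an inhibitor of basic helix-loop-helix factors, read 5.81 and 5.71 with GSI, against 7.67 and 7.87 with DMSO, and fell by 2.01 on the log2 scale (SE 0.11; limma, adjusted p = 0.00546). Jun, an AP-1 subunit, read 3.64 on both GSI arrays, against 5.71 and 5.50 with DMSO, and fell by 1.96 (SE 0.11; limma, adjusted p = 0.00546). The GSI readings of this Jun probe set lie near the olfactory receptor median, so its fold is uncertain, and a second Jun probe set differed by -0.66 and did not pass. The retinoblastoma gene Rb1 differed by 0.36 and the nucleolar factor gene Ubtf by -0.16 and -0.11, none past the threshold.

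**Figure D4:**
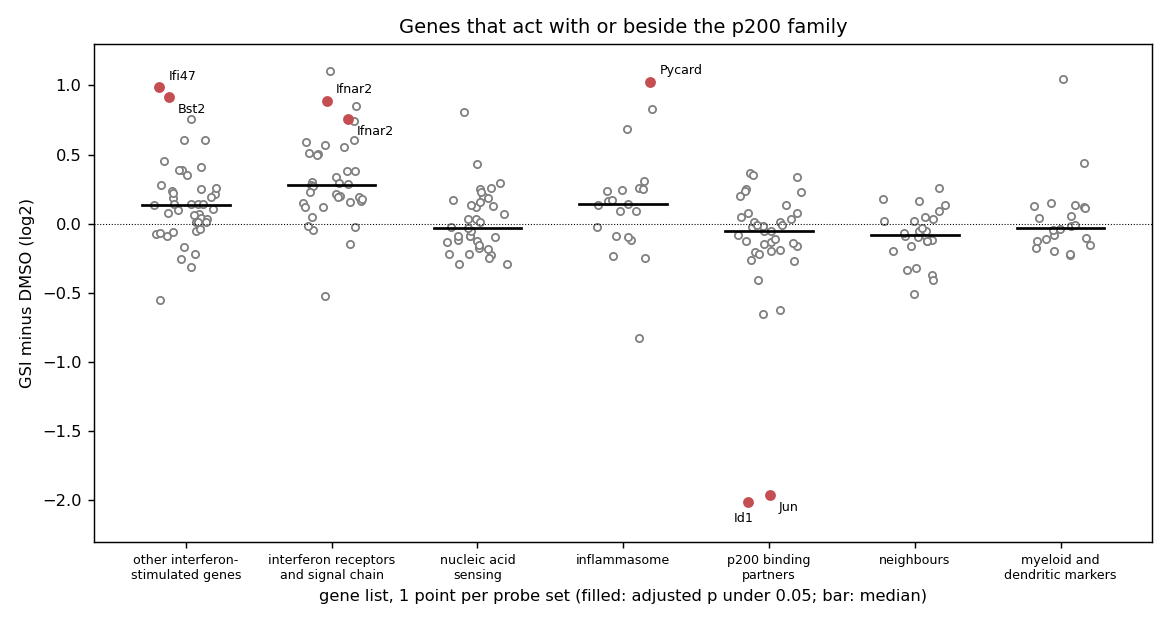
GSI minus DMSO log2 difference (vertical axis) of each probe set in 7 gene lists (other interferon-stimulated genes, interferon receptors and signal chain, nucleic acid sensing, inflammasome, p200 binding partners, neighbours, myeloid and dendritic markers), with filled points past an adjusted p of 0.05 and a bar at each median. The called points are Ifi47, Bst2, Ifnar2 and Pycard above 0 and Id1 and Jun near -2, and the medians of these lists lie between -0.08 and 0.28.

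Several p200 genes are known to be prominent in macrophages, dendritic cells and B cells, so markers of such cells were read beside the family. Of 22 probe sets of 16 myeloid and dendritic markers, 17 of 9 B cell markers and 9 of 7 killer cell markers, 0 passed limma, against 1.39% of all probe sets. The summed linear signal of the myeloid and dendritic list was 571 to 600 with GSI and 567 to 577 with DMSO, that of the B cell list 218 to 236 with GSI and 233 to 234 with DMSO, and that of the killer cell list 130 to 138 with GSI and 128 to 133 with DMSO. Before adjustment 2 myeloid or dendritic probe sets were higher and 1 lower at p under 0.05, against 8.17% and 8.23% of all probe sets. The B cell and killer cell lists had 0 in either direction. At or under 4.74 on all arrays were 13, 15 and 8 of these probe sets. Itgam and Flt3 had the smallest p of the myeloid and dendritic list. Itgam, encoding an integrin chain of myeloid cells, read 4.59 and 4.04 with GSI, against 3.45 and 3.08 with DMSO, a difference of 1.05 ± 0.21 (SE; limma, adjusted p = 0.0935), with all 4 readings under 4.74. Flt3, encoding a cytokine receptor of progenitors and dendritic cells, differed by 0.44 ± 0.12 (SE; limma, adjusted p = 0.175). The part of such cells in the family's differences was not tested. Of the T cell marker probe sets 15 of 19 were above 4.74 on all arrays. Cd3d had a mean of 12.34 with GSI and 12.64 with DMSO, and Thy1 12.37 with GSI and 11.84 with DMSO. The probe set of Cd5 was under 4.74 on all arrays, at a mean of 4.27 with GSI and 3.83 with DMSO, and that of Cd2 read 3.79 and 3.78 with GSI, against 4.79 and 4.35 with DMSO. Of 19 probe sets of 11 T cell markers 5 rose, those of Cd8a and Cd247, and 1 fell, Ptcra, against 0.948% called higher and 0.446% called lower of all probe sets.

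The probe sets whose 4 readings, centred on their own mean, lay nearest to the brightest Ifi202b probe set were those of Dtx1 (Euclidean distance 0.434), Olfm4 (0.602), Exoc3l4 (1.00), Tnfaip2 (1.04) and Il2ra (1.08). The likeness rests on 4 arrays in 2 groups and reflects mainly the size of the difference, which was -3.53, -3.32, -2.91, -2.88 and -2.87 in this order.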

How the data were processed

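RNA of 4 T29 samples was measured on Affymetrix expression arrays. The deposited values are log2 expression, 1 per probe set and array, made with RMA per the submitters' processing notes, without a stated version or settings, so background correction and normalization between arrays could not be repeated. RMA compresses differences of dim probe sets. The table held 45101 probe sets, of which 64 controls were left out. Array medians lay between 4.86 and 4.89, and the GSI arrays correlated at 0.997 and the DMSO arrays at 0.996. For arrays, the number of samples limits the precision.

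GSI was compared with DMSO with R 4.3.3 by limma 3.58.1 (eBayes after lmFit, group as the only term, two-sided, 5.77 total degrees of freedom), with Benjamini-Hochberg adjustment over all 45037 probe sets. Lists used probe sets with 1 gene symbol, updated through RefSeq GRCm38.p6. List members without one were not analysed here. The members, lists, tests and rule for named genes were chosen with earlier results of these data known. The text gives every member probe set, up to 4 called genes of each list of pathway genes or else the 2 with the smallest p, the nearest 2 neighbours on each side and the 5 probe sets most like Ifi202b. Casp1, Rb1, Ubtf, Irf4, Naip5, Nlrp3, Oasl2, the bright neighbours, the named cell markers and the olfactory receptor guide were chosen after values were seen. The limma step was tested on simulated data. The alternatives are given in the closing section.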

Additional observations from a re-analysis of the deposited data

How the results depend on the processing

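The 12 member differences were negative under each alternative that tested the probe set, and leaving out 1 array kept Ifi202b between -3.79 and -3.66 on its own probe set and Ifi204 between -2.71 and -2.32. With an array left out this sign had to follow, since the groups did not overlap. Using 1 probe set per gene, the trend and robust prior, brighter probe sets only or the replicate block leaves each difference, and so its sign, unchanged. Centring the arrays moved Ifi202b from -3.729 to -3.730 on its own probe set, and cyclic loess moved it to -3.724. Counts of calls moved more. With any 1 array left out, limma called 0 probe sets of all, of the members and of each list, so every count rests on all 4 arrays. At an unadjusted p under 0.05 there were then 3939 to 7010 probe sets in all and 10 of the members. The lone array of a group was then assumed to vary like the other group.

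Against 628 called probe sets in all, there were 2372 with an intensity trend and robust prior, 1556 with dim probe sets left out, 65 with the replicate number as a block and 310 with a 2-fold minimum. Centring the arrays gave 916 and cyclic loess 809. With 1 probe set per gene 750 of 18193 probe sets were called, 284 of them lower, and the 1556 without dim probe sets were of 22519. Of the members 9 were called, against 3 with the replicate block (both Ifi202b probe sets and Ifi204) and 3 of the 5 that remain with 1 probe set per gene. With the trend and robust prior or with centred arrays the dim Ifi203 probe set 1425008_a_at passed as well (adjusted p = 0.0187 and 0.0432).

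For inflammasome genes 1 call became 3 with 1 probe set per gene, with centred arrays and with dim probe sets left out, 4 with the trend and robust prior and 0 with the replicate block. Each of these larger counts held 1 lower call. The list held 14 probe sets with 1 probe set per gene and 10 without dim ones, against 21. For nucleic acid sensing 0 became 1 with the trend and robust prior. For interferon signalling 2 became 4 with 1 probe set per gene, 8 with the trend and robust prior, 6 with centred arrays, 5 with cyclic loess or without dim probe sets, and 0 with the replicate block or a 2-fold minimum. Of the 4 with 1 probe set per gene 3 were higher and 1 lower. The interferon signalling list held 20 probe sets in that setting and 33 without dim ones, against 37. For other interferon-stimulated genes 2 became 4 with the trend and robust prior or without dim probe sets, and 0 with the replicate block or a 2-fold minimum. For p200 partners 2 became 5 with the trend and robust prior. Neighbours had 0 calls throughout. The causes were not tested.

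The groups share the replicate numbers 1 and 2, but the deviations of same-numbered arrays correlated at only 0.070 over probe sets, and with 2 pairs the numbers do not show a pairing. The block leaves 1 residual degree of freedom fewer.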
